A study of Mus musculus with 12 samples.

Results

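The genes described here encode the proteins of the cytosolic ribosome. They were chosen by name alone: every row whose symbol begins with Rpl or Rps and a digit, together with Rplp0, Rplp1, Rplp2 and Rpsa, leaving out symbols marked as pseudogenes (-ps) and the Rps6k kinases. The rule found 90 of 43613 named genes, of which 42 belong to the large subunit, 33 to the small subunit and 3 to the P stalk, and 12 are paralogs or genes that only share the name. A filter on low values (at least 1 FPKM, a length-scaled expression unit, in at least 3 of 12 libraries) kept 84 of the 90, and these 84 are called the tested members. Rpl10l, Rpl39l, Rps4l, Rps12l1 and Rps12l2 were listed at 0 in every library and Rpl3l in all but 2, so the 6 genes that did not pass all belong to the paralogs. Rps3a2 and Rps3a3 count as members, and among the 33 of the small subunit, by their names, although GENCODE vM21 annotates both as processed pseudogenes.

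RNA was sequenced from B cells sorted by flow cytometry from spleens of female mice 6 months old on a C57BL/6 background. All mice carried Sle1b, a lupus susceptibility interval. They were either B6.Sle1b or B6.Sle1b.IFNaR1-/-, labelled as homozygous null for the interferon alpha and beta receptor gene Ifnar1; libraries with the latter label are called Ifnar1KO here. Non-germinal centre (non-GC) B cells were B220-positive, GL7-negative and CD95-negative, and germinal centre (GC) B cells were positive for all 3 markers. There were 12 libraries, 3 for each cell type in each genotype, and each of 3 batches named in the deposited tables held 1 library of each group, numbered as replicates 1, 2 and 3. The labels do not say whether the replicates are separate animals, so the p-values reflect only how these libraries vary, and that variation may be technical.

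A ribosome is built from many different proteins, each made from its own gene, and a resting cell keeps the mRNAs of these genes among its most abundant. Most ribosomal protein mRNAs begin with a terminal oligopyrimidine (TOP) tract, an unbroken run of C and T right after the start site. Through this tract the mTOR pathway and the RNA-binding protein LARP1 control how strongly the mRNAs are translated and how long they are stored. B cells that enter the germinal centre grow, divide rapidly and mutate their antibody genes, in contrast to small resting follicular B cells.

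Batch 3 was unlike the others. In batches 1 and 2 at most 2 of the 84 tested members were listed at 0 in any library, whereas in batch 3 the number was 17 in Sle1b non-GC, 36 in Sle1b GC, 31 in Ifnar1KO non-GC and 61 in Ifnar1KO GC cells. From the spacing of low values, 1 read on 1 kb of transcript was worth 0.124 to 0.406 FPKM, and the libraries held about 1309000 (Sle1b GC replicate 3) to 10223000 (Sle1b non-GC replicate 3) reads on named genes, an estimate that rests on GENCODE exon lengths. Mitochondrially encoded genes took 27.96% of these reads in Sle1b GC replicate 1 and 11.7% in Ifnar1KO GC replicate 1, against 0.246% to 5.56% in the other 10. B cell markers (6 genes) summed to 1074 to 2036 FPKM in batches 1 and 2 and to 15.8 to 153 FPKM in batch 3. The 8 GC markers summed to 255 to 624 FPKM in GC against 59.0 to 100 FPKM in non-GC cells of batches 1 and 2, but to 19.4 and 18.7 FPKM in GC against 17.3 and 28.9 FPKM in non-GC cells of batch 3. The marker lists for T cells (8 genes), NK cells (6), myeloid cells (8), plasmacytoid dendritic cells (7, of which 6 were found) and erythroid cells and platelets (8) summed to at most 73.7, 21.9, 166, 90.1 and 90.8 FPKM in any library. Plasma cell markers (6 genes) summed to at most 137 FPKM, and in batches 1 and 2 resting B cell markers (7 genes) ranged between 3048 and 4966 FPKM in non-GC cells but between 1519 and 2802 FPKM in GC cells. The highest myeloid, plasmacytoid and erythroid sums all belonged to Sle1b GC replicate 1. Nkg7, Ncr1, Gzma, Prf1 and Klrd1 were at 0 in all 3 Ifnar1KO GC libraries. The highest T cell sum, 73.7 FPKM, was in Sle1b GC replicate 3, where B cell markers summed to only 15.8 FPKM. In Ifnar1KO GC replicate 3 the T cell sum was 26.8 FPKM and the B cell sum 22.0 FPKM. Ifnar1 itself measured 14.6, 36.1 and 3.45 FPKM in Sle1b non-GC replicates 1, 2 and 3 against 51.2, 69.1 and 2.58 FPKM in those labelled Ifnar1KO, and 8.12, 9.89 and 6.80 against 14.1, 15.4 and a listed 0 FPKM in GC cells. In batches 1 and 2 the transcript was therefore higher where the label says that it is deleted, the values cover the whole locus including any part the deletion left, and each direction between genotypes below rests on the labels. What part batch quality, mitochondrial content or other cells have in the results below was not tested; results are given with and without batch 3.

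Ribosomal protein mRNAs were abundant in the non-GC cells of batches 1 and 2. Summed over the 90 members, Sle1b non-GC cells held 13464 and 13072 FPKM in batches 1 and 2 and Ifnar1KO non-GC cells held 14409 and 10610 FPKM. The 4 GC libraries of the same batches held 6596 and 5457 FPKM in Sle1b and 7219 and 3980 FPKM in Ifnar1KO, so GC and non-GC libraries did not overlap. Batch 3 gave 1909 and 249 FPKM for Sle1b non-GC and GC and 773 and 255 FPKM for Ifnar1KO non-GC and GC, lower than any other library. Over the 3 batches, which were normalized separately, the sums came to 9482 ± 6561 FPKM in Sle1b non-GC, 4101 ± 3384 in Sle1b GC, 8597 ± 7038 in Ifnar1KO non-GC and 3818 ± 3485 in Ifnar1KO GC cells (SD, n = 3 each), a spread set by batch 3. Bulk values cannot tell fewer cells of a type from less RNA per cell.

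**Figure D1:**
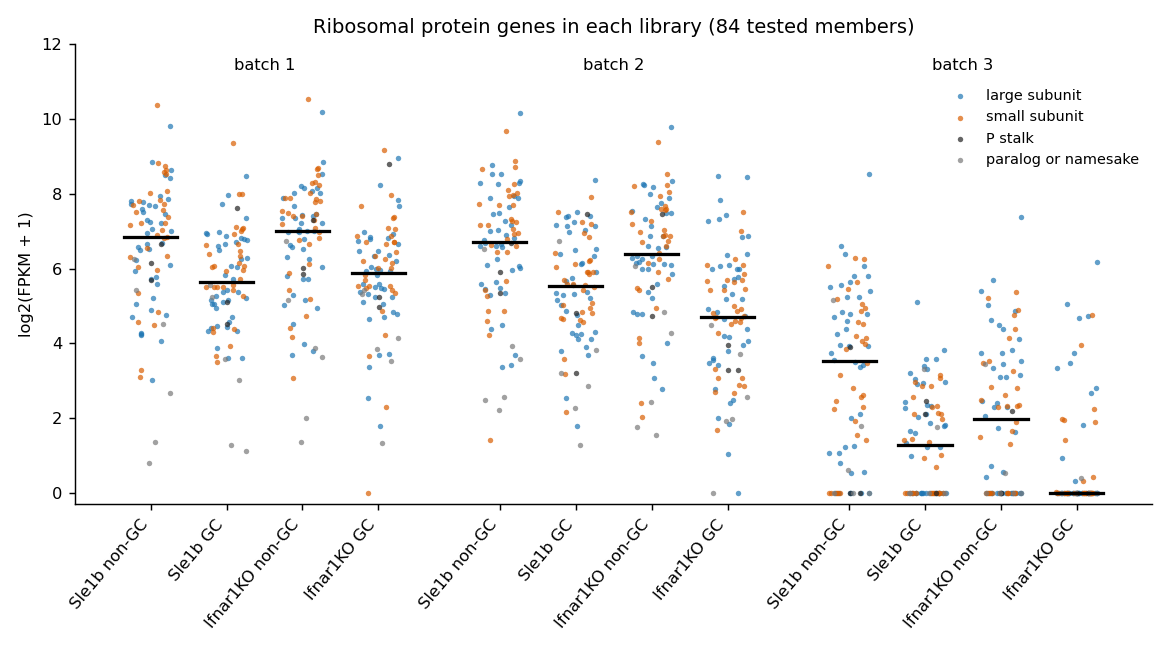
Level of each of the 84 tested members, log2(FPKM + 1), in the 12 libraries; points are genes coloured by role and bars are medians. The median in GC cells lies below that in non-GC cells of the same batch and genotype, and batch 3 lies below batches 1 and 2 with many genes at 0.

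The mean level over the 12 libraries ran from 1.63 to 519 FPKM among the tested members, with a median of 55.5 FPKM. Values are per length, but levels of different genes can be compared only roughly. Reads may be divided with pseudogenes or shared with neighbouring genes, as described below. Rpl31, a protein at the exit tunnel of the large subunit, had the highest mean. It measured 899, 1139 and 364 FPKM in Sle1b non-GC replicates 1, 2 and 3, and 356, 327 and 6.88 FPKM in Sle1b GC. In Ifnar1KO it measured 1166, 885 and 165 FPKM in non-GC and 499, 350 and 70.6 FPKM in GC cells. Every GC library lay below the non-GC library of its batch and genotype. Rps27, a zinc-finger protein of the small subunit, was next. Its values were 1320, 817 and 2.80 FPKM in Sle1b non-GC and 655, 150 and 6.22 FPKM in Sle1b GC, and 1490, 669 and 7.94e-05 FPKM in Ifnar1KO non-GC and 578, 48.4 and 0.26 FPKM in Ifnar1KO GC cells. It was thus lower in GC cells in batches 1 and 2 and at most 6.22 FPKM in all of batch 3. Rpl41, Rps18, Rpl30, Rpl13a, Rpl10a, Rpl23 and Rps24 were also among the 10 highest. The locus of Rpl13a is shared with Flt3l and that of Rpl24 with Zbtb11 in the deposited tables, so reads of those neighbours are included. Some other loci are wide, such as Rpl31 on chromosome 1 at 39367842 to 39478755 and Rpl35a on chromosome 16 at 32914100 to 33127695. Whether such loci take in neighbouring transcripts was not tested.

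The 10 highest members made up 34.9% to 49.0% of the summed FPKM in the 8 libraries of batches 1 and 2. In Ifnar1KO GC replicate 3 they made up 90.6%. The order of the members was similar within batch 1 (Spearman rho 0.83 to 0.97 between its libraries, over 84 genes that share locus length and mapping) and within batch 2 (0.78 to 0.96), and less so between those batches (0.56 to 0.90). Within batch 3 rho was 0.09 to 0.39. The ranking of ribosomal protein genes in batch 3 therefore differed even between its own libraries.

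The start sites of several members show the pyrimidine run for which these genes are known. RefSeq promoter sequences (GRCm38.p6) matched 65 of the 90 members by symbol, 62 of them tested. The letters from 15 bases before the start to 15 from the start on are shown for 6 members that were lower in GC cells of batches 1 and 2 and for 2, Rpl27a and Rplp2, that were not; capitals mark the longest unbroken run of C and T where it has at least 8 bases.
Rpl15: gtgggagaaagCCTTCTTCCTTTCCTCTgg
Rpl31: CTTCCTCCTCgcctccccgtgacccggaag
Rpl38: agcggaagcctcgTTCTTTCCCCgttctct
Rps24: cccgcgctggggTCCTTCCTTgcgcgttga
Rps27: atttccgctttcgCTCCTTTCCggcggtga
Rps28: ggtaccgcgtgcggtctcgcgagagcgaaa
Rpl27a: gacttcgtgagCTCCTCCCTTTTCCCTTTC
Rplp2: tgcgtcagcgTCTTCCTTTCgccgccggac
The Rpl15 window lies at chr14:18270972-18271001 on the minus strand, that of Rps27 at chr3:90213634-90213663 on the minus strand, and that of Rpl27a at chr7:109519180-109519209 on the plus strand. A run of at least 8 was present in 24 of the 62 tested members (38.7%) and in 11.9% of all 27025 promoters in the same window. The motif CCGGAAG, read on both strands of the whole 300 bases and known as a core of ETS factor sites, was likewise present in 24 of 62 (38.7%) and in 9.12% of all promoters. The median difference between GC and non-GC cells over both genotypes, without batch 3, was -1.10 on the log2 scale in the 24 members with the run and -1.22 in the 38 without it. Rps28 has no such run and Rpl27a has one of 19 bases, and in Rpl31 the run lies before the start site; RefSeq start sites may lie some bases from the sites used in B cells.

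In all 6 pairs the summed FPKM of the members was lower in the GC library than in its non-GC partner. FPKM is relative to the other RNA of a library, so it does not give the amount of mRNA per cell. The summed level in GC cells was 49.0%, 41.7% and 13.1% of that in non-GC cells in Sle1b batches 1, 2 and 3, and 50.1%, 37.5% and 33.0% in Ifnar1KO. The share of estimated reads on named genes that fell on members was also lower in GC cells. The non-GC to GC ratio of this share was 3.46, 2.37 and 1.19 in Sle1b batches 1, 2 and 3. In Ifnar1KO it was 3.83, 2.14 and 1.71. The reads on named genes include mitochondrially encoded ones, whose share in batch 1 was unequal. It was 27.96% in GC against 5.19% in non-GC cells of Sle1b, and 11.7% against 4.61% in Ifnar1KO. What part this has in the ratios was not tested. In each genotype batch 3 thus showed the largest fall by summed FPKM but the smallest by read share, so the size depended on the measure. Differences are given as log2(FPKM + 1), a scale on which low genes appear to change less than they do. The median difference of the tested members was -0.996, -1.13 and -1.85 in Sle1b and -1.07, -1.43 and -0.52 in Ifnar1KO. Over all 14608 genes tested the corresponding medians were 0.00 in each Sle1b batch and -0.45, -0.16 and 0.00 in Ifnar1KO. The other abundant genes were 976 with a mean of at least 30 FPKM, a floor not applied to the members, and were not matched in level. Their medians were -0.30, -0.03 and -1.15 in Sle1b and -0.77, -0.23 and -1.19 in Ifnar1KO. The members thus lay below the other abundant genes by 0.70, 1.11 and 0.70 in Sle1b and by 0.29 and 1.20 in Ifnar1KO batches 1 and 2, and above them by 0.67 in Ifnar1KO batch 3, where 28 of the 84 members were at 0 in both libraries. Among the tested members a higher mean level went with a more negative difference averaged over both genotypes (Spearman rho -0.65, and -0.38 without batch 3).

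**Figure D2:**
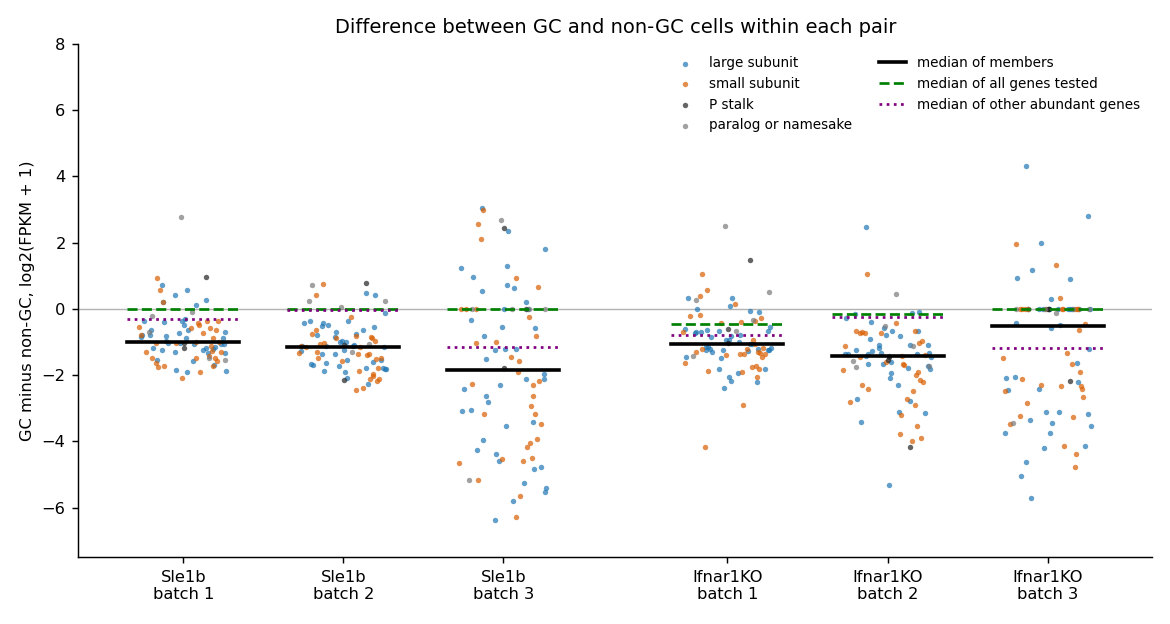
GC minus non-GC difference of each of the 84 tested members, log2(FPKM + 1), in the 6 pairs of 1 batch and genotype; solid bars are medians of the members, dashed bars of all 14608 genes and dotted bars of 976 other abundant genes. In batches 1 and 2 most points lie between 0 and -2 and the members' median lies below both others; in batch 3 the points spread far more widely.

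In single pairs, 73, 75 and 58 of 84 members were lower in GC cells in Sle1b batches 1, 2 and 3, and 72, 81 and 46 in Ifnar1KO. Lower in all 3 batches of Sle1b were 52 of 84, against 14.2% of all genes tested and 31.9% of the other abundant genes. In Ifnar1KO 38 of 84 were lower in all 3 batches, against 19.2% of all genes and 39.4% of the other abundant genes. All 6 pairs went down for 29 of 84 (34.5%), against 5.82% of all genes and 21.0% of the other abundant genes. None of the tested members was higher in GC cells in all 6 pairs. The 29 comprise 15 large-subunit genes (Rpl3, Rpl4, Rpl5, Rpl9, Rpl10a, Rpl11, Rpl13a, Rpl15, Rpl17, Rpl23, Rpl24, Rpl27, Rpl30, Rpl31 and Rpl39) and 14 small-subunit genes, among them Rps3, Rps4x, Rps9, Rps12, Rps13, Rps18, Rps19, Rps20, Rps21, Rps23, Rps27a and Rps29.

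No single member passed the test within 1 genotype. The test was limma on log2(FPKM + 1) with batch as a block, two-sided, with Benjamini-Hochberg adjustment over all 14608 genes at 0.05. For GC against non-GC in Sle1b it called 0 of 84 members (0% of all genes), with 32 members lower at an unadjusted p under 0.05 (5.54% of all genes) and 1 higher, and a smallest adjusted p of 0.403. In Ifnar1KO it called 0 of 84 (1 gene of 14608, 0.00685%), with 30 lower at an unadjusted p under 0.05 (10.1% of all genes), 0 higher, and a smallest adjusted p of 0.325. The median fitted difference was -1.26 in Sle1b and -1.23 in Ifnar1KO, against -0.11 and -0.39 over all genes and -0.56 and -0.77 over the other abundant genes. With each library centred on the other abundant genes, the members' medians were -0.71 and -0.44.

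The members with the most negative fitted difference among those lower in all 3 batches of Sle1b were Rpl30 (-3.03, SE 0.78), Rps12 (-2.90, SE 0.81), Rpl31 (-2.89, SE 0.80), Rps21, Rpl38, Rps26, Rps28, Rps23, Rps19 and Rpl39 (-2.46, SE 0.72), with adjusted p from 0.403 to 0.448. Rps19 is mutated in Diamond-Blackfan anaemia, and RPL38 is known for its part in translating Hox mRNAs. In Ifnar1KO they included Rpl27 (-3.05, SE 0.85), Rpl39 (-3.03, SE 0.72), Rps9, Rpl8, Rpl37, Rps12, Rpl5, Rpl13a and Rps13 (-2.22, SE 0.61), with adjusted p from 0.325 to 0.390. Rpl5 is known to bind the ubiquitin ligase MDM2 when ribosome assembly is disturbed. In Sle1b batch 3 gave each of these 10 its most negative value, -5.41 for Rpl30 against -1.87 and -1.82 in batches 1 and 2. Only Rpl39 and Rps12 stood among the first 10 in both genotypes.

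Averaged over both genotypes, a comparison added after the values had been seen, limma again called 0 of 84 members with all 3 batches (4 of 14608 genes, 0.0274%), and 51 were lower at an unadjusted p under 0.05 (13% of all genes) with 0 higher. Rpl39 came nearest, at -2.74 (SE 0.51, adjusted p = 0.0737). On batches 1 and 2 alone, with the filter redone (12260 genes, 3 residual degrees of freedom), 29 of 84 members fell in GC cells and 0 rose, against 2.77% of all genes that fell and 1.81% that rose, and against 9.74% and 2.93% of the other abundant genes. The number of calls moved with single libraries and with the block: 0 members passed without the block, 0 or 1 when any 1 of 6 libraries was also left out (Sle1b non-GC or GC replicates 1 and 2, Ifnar1KO non-GC replicates 1 and 2), 35 without Ifnar1KO GC replicate 1 and 14 without Ifnar1KO GC replicate 2. The median difference of the members stayed between -1.37 and -1.06 in those 8 fits. Counts over all genes are not given for them, so whether the members moved apart from other genes cannot be read there. With each library centred on its median gene 14 of the 29 passed, among 171 genes called lower. Centred on the other abundant genes 10 passed, among 152. Uncentred, the 29 were among 340 genes called lower.

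By symbol the 29 comprised 16 small-subunit genes, with the annotated pseudogenes Rps3a2 and Rps3a3 among them, and 13 large-subunit genes. Their differences lay between -2.14 and -1.16. Rps28, on chromosome 17 at 33810520 to 33824562, had the smallest adjusted p (-1.66, SE 0.26, adjusted p = 0.0170 by limma). It measured 260 and 206 FPKM in Sle1b non-GC against 60.6 and 68.1 FPKM in Sle1b GC replicates 1 and 2, and 169 and 154 against 63.8 and 50.5 FPKM in Ifnar1KO. The 4 GC libraries did not overlap the 4 non-GC libraries. In batch 3 it measured 42.9 and 0.90 FPKM in Sle1b and was listed at 0 in both Ifnar1KO libraries. Rpl38, on chromosome 11 at 114668524 to 114672331, measured 201 and 152 against 66.4 and 68.9 FPKM in Sle1b and 127 and 198 against 32.4 and 39.3 FPKM in Ifnar1KO (-1.74, SE 0.28). Rpl30, on chromosome 15 at 34437807 to 34443640, measured 394 and 323 against 107 and 90.8 FPKM in Sle1b and 460 and 320 against 202 and 116 FPKM in Ifnar1KO (-1.58, SE 0.26). In batch 3 Rpl30 was at 41.5 and 10.5 FPKM in non-GC cells and at 0 in both GC libraries. For each of these genes the GC values of batches 1 and 2 lay below all non-GC values. They were chosen by their calls on these same libraries, so this separation adds no further support.

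Rpl39, a very small protein of the exit tunnel encoded on chromosome X at 37082520 to 37085402, fell by 1.89 (SE 0.32) on batches 1 and 2. It measured 230, 234 and 26.4 FPKM in Sle1b non-GC and 110, 80.0 and 0 FPKM in Sle1b GC, and 257, 235 and 16.4 against 72.2, 25.6 and 0 FPKM in Ifnar1KO. It was lower in GC cells in all 6 pairs. Rps27 fell by 2.14 (SE 0.45), the most negative difference of the 29, although its values in batch 3 did not go the same way in GC cells. Others that fell were Rps24, Rps25, Rps12, Rpl15, Rpl34, Rps29, Rps4x, Rps26, Rpl31, Rpl17, Rpl19, Rps18, Rpl12, Rps23, Rps3a3, Rpl23a, Rpl8, Rpl23, Rpl32, Rps7 and Rps3a2. Of the 29, 13 were also lower in all 6 pairs.

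**Figure D3:**
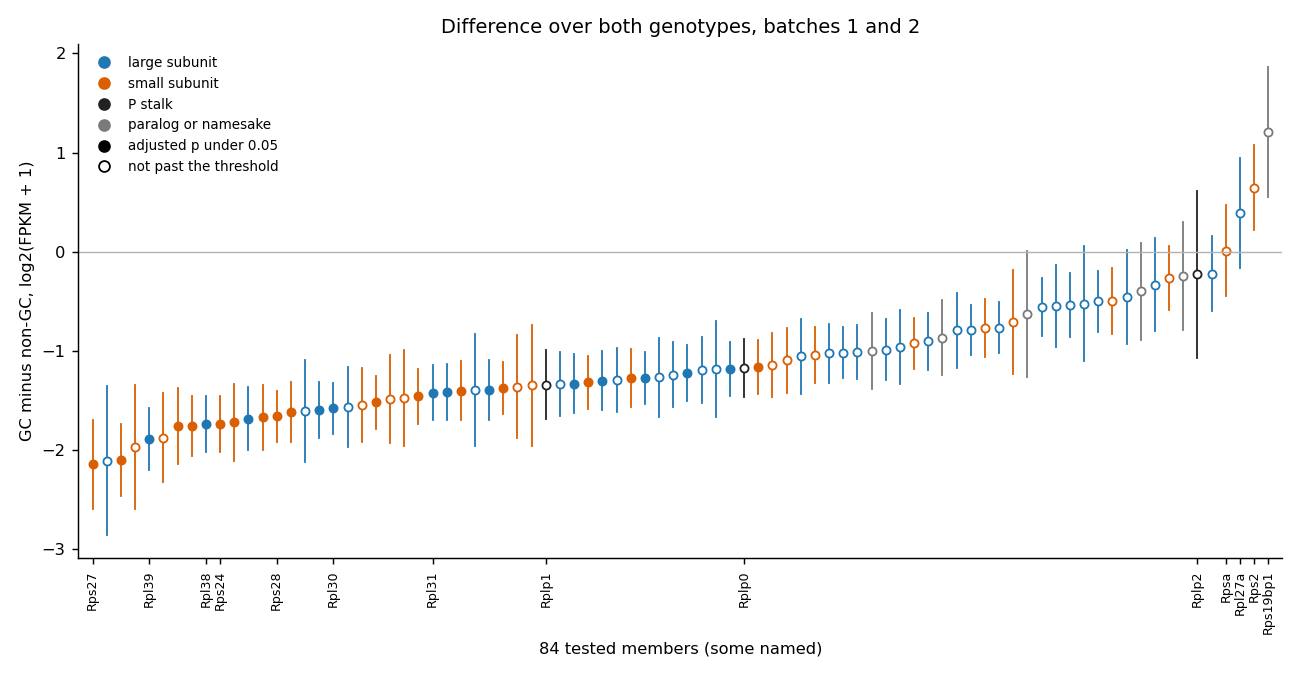
Difference between GC and non-GC cells averaged over both genotypes in batches 1 and 2 for each of the 84 tested members, log2(FPKM + 1), with standard errors and some genes named on the axis; filled points passed limma's threshold and colours give the role. Of the 84 points 80 lie below 0; Rps19bp1, Rps2, Rpl27a and Rpsa lie above, with open points.

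Small-subunit genes had a more negative median difference between GC and non-GC cells than large-subunit genes in each pair. The median difference of the 33 small-subunit genes was -1.04, -1.32 and -2.25 in Sle1b and -1.29, -1.69 and -1.47 in Ifnar1KO, and that of the 42 large-subunit genes -0.92, -1.13 and -2.04 and -1.06, -1.36 and -0.52. The ratio of summed small-subunit to summed large-subunit FPKM was lower in GC cells in all 6 pairs: from non-GC to GC it went from 1.04 to 0.98, 0.86 to 0.70 and 0.49 to 0.42 in Sle1b batches 1, 2 and 3, and from 1.01 to 0.95, 0.88 to 0.47 and 0.47 to 0.28 in Ifnar1KO. Without the highest gene of each subunit, Rps27 and Rpl31, it was still lower in the 6 pairs: 0.97 to 0.88, 0.89 to 0.72 and 0.69 to 0.40 in Sle1b, and 0.96 to 0.91, 0.91 to 0.52 and 0.69 to 0.43 in Ifnar1KO. The ratio is a description, and the size of the shift was least in batch 1 of each genotype. Within each group the ratio also fell from batch 1 to batch 2 and to batch 3. Small-subunit genes had the higher median level in Sle1b non-GC replicates 1 and 2 (148 and 142 against 111 and 105 FPKM). What part level or library has in the shift was not tested.

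The P stalk, which recruits translation factors to the large subunit, was divided. Its base protein Rplp0 measured 70.3, 59.3 and 14.0 FPKM in Sle1b non-GC and 33.7, 27.3 and 3.32 FPKM in Sle1b GC, and 63.0, 44.1 and 0 against 30.5, 14.5 and 0 FPKM in Ifnar1KO. Rplp1, one of the acidic proteins of the stalk, measured 50.4, 39.9 and 0 against 21.9, 8.29 and 4.4997 FPKM in Sle1b and 56.3, 25.6 and 0 against 36.5, 8.73 and 0 FPKM in Ifnar1KO. Both were thus lower in GC cells of batches 1 and 2, without passing the test (adjusted p = 0.0563 and 0.0632 by limma without batch 3). Rplp2, the partner of Rplp1, went the other way in 3 of those 4 pairs. It measured 99.7, 101 and 0 against 196, 174 and 0 FPKM in Sle1b and 157, 173 and 3.55 against 441, 8.74 and 0 FPKM in Ifnar1KO. Only Ifnar1KO GC replicate 2 was far below its partner, and the averaged difference was -0.23 (SE 0.84, adjusted p = 0.901).

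A few other members did not share the lower level. Rpl27a had uneven values: 17.6, 235 and 1.10 FPKM in Sle1b non-GC, 29.7, 165 and 2.05 FPKM in Sle1b GC, 11.95, 62.3 and 0.66 FPKM in Ifnar1KO non-GC and 4.86, 353 and 31.9 FPKM in Ifnar1KO GC cells. It was higher in GC cells in 4 of 6 pairs, and its level in batch 2 was above that in batches 1 and 3 in each group. Rps2 was higher in GC cells in 5 of 6 pairs at low levels: 8.84, 1.66 and 0 against 10.4, 3.52 and 6.88 FPKM in Sle1b and 7.498, 3.09 and 6.13 against 11.6, 7.43 and 0 FPKM in Ifnar1KO (1.32 in Sle1b, SE 0.78, adjusted p = 0.623). In Sle1b the difference was 0.49 without batch 3, 0.64 when Rps2 was summed with its pseudogenes, and -0.14 with both changes, so its direction was not stable. Rpsa, the laminin receptor homologue of the small subunit, measured 22.6, 28.1 and 0 against 44.3, 10.9 and 4.91 FPKM in Sle1b and 20.4, 14.98 and 10.5 against 43.5, 8.97 and 1.66 FPKM in Ifnar1KO, higher in 3 pairs and lower in 3. None of these passed the test in any comparison.

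**Figure D4:**
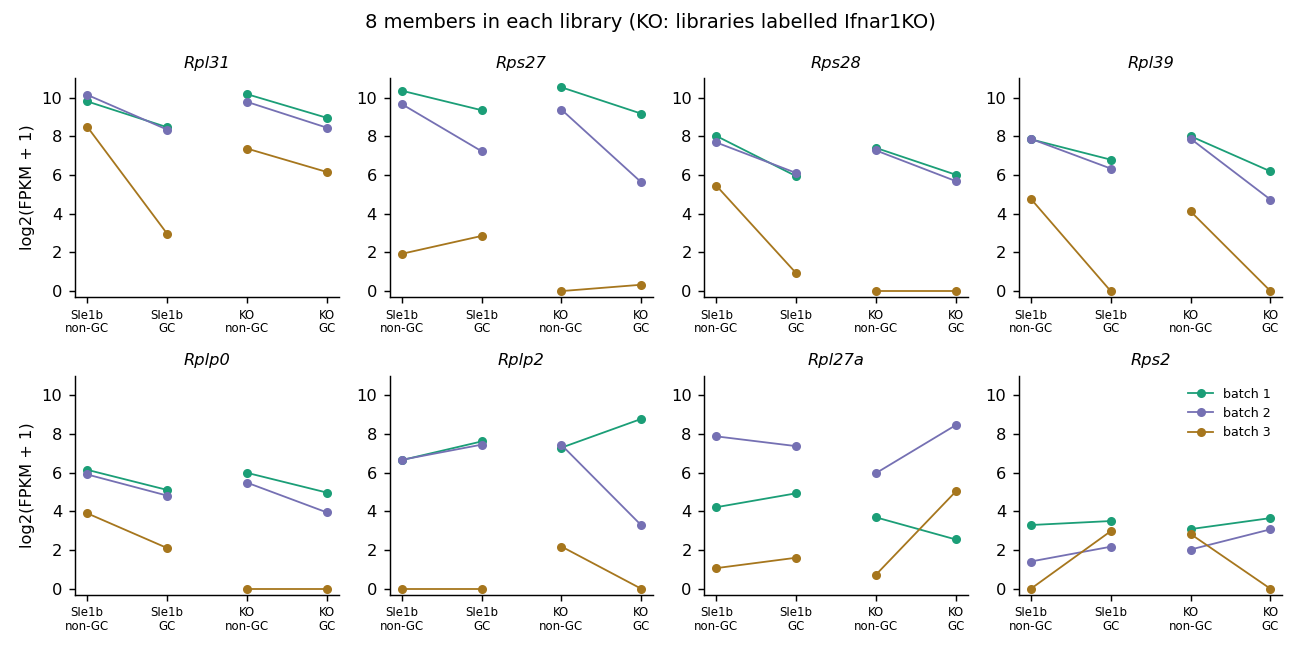
Levels of 8 members in each library, log2(FPKM + 1), with lines joining the non-GC and GC library of 1 batch and genotype. Rpl31, Rps28, Rpl39 and Rplp0 are lower in GC cells in batches 1 and 2, Rps27 differs between batches by its level in batch 3, and Rplp2, Rpl27a and Rps2 do not share 1 direction.

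Of the paralogs and namesakes, 6 of 12 were tested and 0 passed. Rpl36al, the paralog of Rpl36a, measured 74.8, 90.3 and 34.7 against 45.7, 106 and 0 FPKM in Sle1b and 106, 66.1 and 9.92 against 38.9, 21.6 and 0 FPKM in Ifnar1KO, lower in GC cells in 5 of 6 pairs as was Rpl36a itself. Rpl22l1, the paralog of Rpl22, measured 21.8, 14.1 and 2.43 against 7.10, 6.31 and 2.42 FPKM in Sle1b and 13.6, 27.6 and 0 against 10.6, 12.1 and 0 FPKM in Ifnar1KO. Rpl22 was between 159 and 182 FPKM in the 4 non-GC libraries of batches 1 and 2, so Rpl22 was the major form in every one of those libraries. Rps27l and Rps27rt stayed below Rps27 in each library of batches 1 and 2, with 1.17 to 18.4 and 0 to 42.3 FPKM. Rps19bp1, which encodes a protein that binds the small-subunit protein RPS19 and is not itself part of the ribosome, was higher in GC cells in all 3 Sle1b pairs: 0.75, 3.65 and 0.54 against 10.97, 3.85 and 8.97 FPKM (1.84, SE 0.82, adjusted p = 0.512 by limma). In Ifnar1KO it measured 1.56, 4.45 and 0 against 13.4, 2.81 and 0 FPKM.

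Ribosomal protein genes have many processed copies, and the deposited counting could divide reads between a gene and its copies. The tables name 254 such pseudogenes, of which 249 were joined by symbol to 57 members. Their summed level was 14.1% to 18.1% of members and pseudogenes together in batches 1 and 2, and 12.3% to 23.0% in batch 3. They were lower in GC cells too: 1236 against 2727, 1206 against 2653 and 74.3 against 399 FPKM in Sle1b, and 1187 against 2870, 715 against 2041 and 35.6 against 213 FPKM in Ifnar1KO. In 9 tested members the pseudogenes carried more than the gene; among these, Rpl10 held 7.35% of the joint level, Rps15a 14.7%, Rpl28 16.0%, Rpsa 17.7%, Rps6 24.5%, Rpl18 36.4%, Rpl36a 47.8% and Rps2 48.2% (batches 1 and 2). The levels of these 9 are uncertain, and Rps2 and Rpsa, 2 of the 4 members above 0 in the average over both genotypes, are among them. With each member summed with its pseudogenes, 32 members fell without batch 3, including 28 of the 29, among 321 genes called lower.

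Between genotypes no common direction was seen. In non-GC cells the summed level in Ifnar1KO was 107%, 81.2% and 40.5% of that in Sle1b in batches 1, 2 and 3, and the median member differed by 0.18, -0.30 and -1.14. In GC cells it was 109%, 72.9% and 102%, with medians of 0.11, -0.49 and 0.00. By limma, 0 of 84 members passed in non-GC cells (0% of all genes), with 2 lower at an unadjusted p under 0.05 (0.863% of all genes) and 0 higher. In GC cells 0 of 84 passed (0% of all genes), with 2 lower at an unadjusted p under 0.05 (5.31% of all genes) and 0 higher. In non-GC cells 13 of 84 members were lower in all 3 batches in libraries labelled Ifnar1KO (6.43% of all genes) and 6 higher (10.8% of all genes). Rps28 had the most negative fitted difference of the former (-2.16, SE 0.82), which batch 3 carried: its values were -0.62, -0.42 and -5.46 in batches 1, 2 and 3. Rplp2 led the latter (1.20, SE 0.96), with 0.65, 0.77 and 2.19. In GC cells 11 of 84 were lower in all 3 batches (12.7% of all genes) and 5 higher (3.05% of all genes). Among the former Rps18 had -1.62 (SE 0.64, adjusted p = 0.741), with -0.61, -1.10 and -3.15 in batches 1, 2 and 3. Rpl31 led the latter (1.26, SE 0.80, adjusted p = 0.782), with 0.49, 0.10 and 3.18, so batch 3 carried its value too. These comparisons share libraries with the GC comparisons above.

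The interaction, which tests whether the difference between GC and non-GC cells differs between genotypes, was called for 0 of 84 members (0% of all genes; 1 member lower at an unadjusted p under 0.05, against 3.05% of all genes; smallest adjusted p = 0.992 by limma). The median interaction was -0.06, and its sign changed with single libraries. A miss of the threshold does not show that the genotypes act alike.

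Genes of other steps of ribosome production did not all stand where the ribosomal proteins did. Of 18 translation factors and related genes whose mRNAs carry a TOP tract, 17 (94.4%) lay below 0 in Sle1b and 15 (83.3%) in Ifnar1KO, against 72.1% and 75.6% of the other abundant genes, with medians of -0.81, -0.56 and -1.74 and of -0.60, -0.67 and -1.89 in batches 1, 2 and 3. In Ifnar1KO batch 1 the median of the other abundant genes, -0.77, was lower than that of this list. By limma on batches 1 and 2 over both genotypes, 3 of the 18 fell and 0 rose: the elongation factor subunits Eef1d (-1.59, SE 0.37) and Eef1g (-1.46, SE 0.31), and Tpt1 (-1.16, SE 0.26), which encodes the translationally controlled tumour protein. With all 3 batches 0 passed, and fits without single libraries were not run for these 3. Of the ribosome partners outside the naming rule, Gnb2l1, which encodes the small-subunit scaffold RACK1, was lower in GC cells in all 6 pairs (-1.64, SE 0.56 in Sle1b; -1.12, SE 0.56 in Ifnar1KO) and Fau in 5. Neither passed the test.

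Ribosome biogenesis factors (39 genes), which process and assemble the subunits in the nucleolus, had medians of 0.27, 0.05 and -0.16 in Sle1b and -0.24, -0.12 and 0.00 in Ifnar1KO. RNA polymerase I and its factors (14 genes) had -0.07, 0.15 and 0.00 in Sle1b and -0.48, -0.92 and -0.16 in Ifnar1KO. Among them the largest subunit Polr1a and the transcription factor Ubtf were higher in GC cells in the 3 Sle1b batches (1.55, SE 0.70, and 1.22, SE 0.59) but had -0.21 and -0.52 in Ifnar1KO. Polr1c and Polr1b, other subunits, were lower in the 3 Sle1b batches (-1.65, SE 0.80, and -0.50, SE 0.75). In the 15 tested upstream regulators the medians were 0.28, 0.28 and -0.30 in Sle1b and -0.49, -0.20 and 0.00 in Ifnar1KO. Mtor was higher in the 3 Sle1b batches (1.40, SE 0.59, adjusted p = 0.494) and had a fitted difference of -0.05 in Ifnar1KO. Mitochondrial ribosomal proteins (77 genes), which make up the ribosome of that organelle, had medians of -0.57, -0.23 and 0.00 in Sle1b and -0.89, -0.62 and 0.00 in Ifnar1KO. In both genotypes 0 genes of these 4 lists passed, and 0 passed over both genotypes without batch 3. The cytosolic ribosomal proteins had the lower median in each of the 6 pairs beside each of the 4 lists. These lists were not matched to the members in level. Many of their genes were low, or at 0 in both libraries of a batch 3 pair, and low genes appear to change less on this scale. What part level has in the contrast was not tested.

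**Figure D5:**
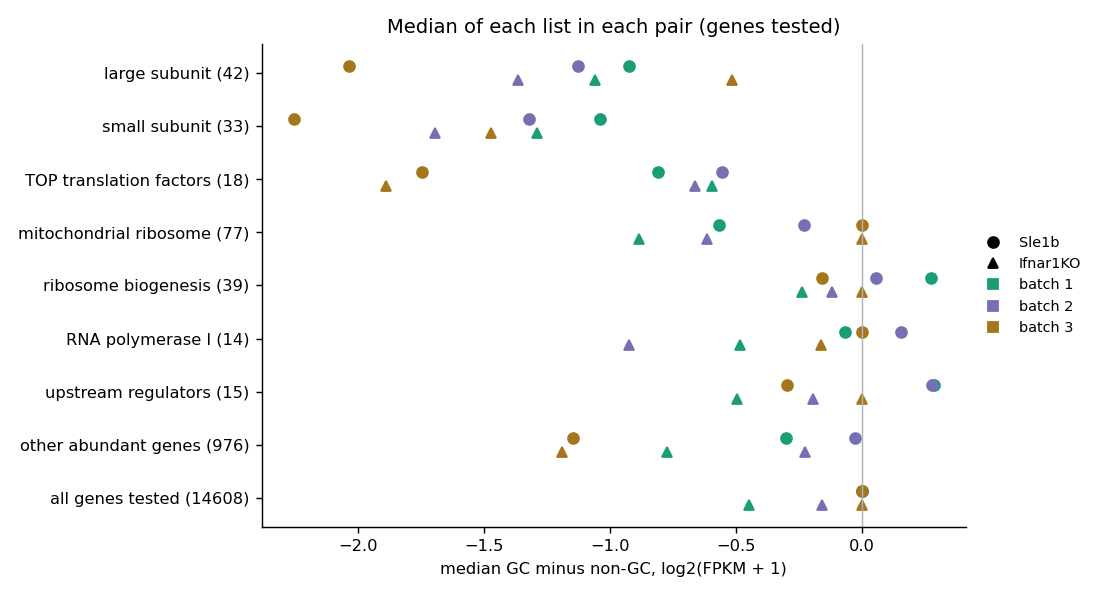
Median GC minus non-GC difference, log2(FPKM + 1), of each gene list in each of the 6 pairs; circles are Sle1b, triangles Ifnar1KO and colours the batches. Both ribosomal subunits and the TOP translation factors lie left of 0 in all 6 pairs, while ribosome biogenesis genes lie within 0.27 of 0.

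The authors' deposited tables, each a test of 1 library against 1 library, give few members a q-value under 0.05. In batches 1 and 2, whose tables hold 82 to 85 member loci tested, the authors' deposited tables call 1 member in 1 of 11 tables. That table has 3.96% of all loci under that q-value, and the 11 tables hold 0.454% to 5.83% of loci under it. None of the 11 compares GC with non-GC cells of Sle1b in batch 1, so the values of that pair were joined through other tables of the batch. In batch 3 the authors' deposited tables call 16 of 68 members between Sle1b GC and non-GC cells, 13 of them lower and 3 higher in GC cells, beside 12.5% of all loci tested, and 5 of 49 between Ifnar1KO GC and non-GC cells, all lower, beside 4.69% of all loci. Between genotypes in batch 3 the authors' tables call 13 of 68 members in non-GC cells, 9 lower and 4 higher in Ifnar1KO, beside 15.7% of all loci. In GC cells they call 8 of 44, 7 lower and 1 higher in Ifnar1KO, beside 6.46% of all loci. These q-values hold no biological replication.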

How the data were processed

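Per the labels' protocols, a SMARTer kit for ultra-low input gave the cDNA and Nextera XT the libraries. The tools named in the submitters' processing notes are TopHat2 2.0.9 with Bowtie2 2.1.0, Cuffdiff, Cufflinks 2.2.1 and CASAVA, and the build is GRCm38 (mm10). The authors deposited 17 Cuffdiff tables of FPKM per locus with q-values, each for 1 library against 1 library of the same batch; per the file headers a table holds 506504 loci, 45241 of them named. A library's FPKM differed between tables by 1 factor, and the factors were joined within each batch by least squares, which left at most 0.087 (log2). Loci of the same symbol were summed and 9 failed genes left out. Of the value columns, 0 were without a sample. Batches were not brought to 1 scale: batch is a block in the fit and differences are read within it. Libraries of a batch deviated together from their group means (lowest correlation 0.289, 0.401 and 0.524 in batches 1, 2 and 3; highest between batches 0.455).

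Genes that reached 1 FPKM in 3 or more libraries were tested with limma 3.58.1 in R 4.3.3 on log2(FPKM + 1), with a trend, 6 residual degrees of freedom, two-sided, Benjamini-Hochberg adjustment over all genes and a threshold of 0.05; the script was tested on simulated data. Summaries used Python 3.11.15 and pandas 2.3.3. The members, lists and named genes were chosen with earlier results of these data known. Named genes are members past the threshold, the 10 largest and 10 most negative differences with 1 direction in all 3 batches, the 10 highest members, the stalk, Rpsa and the paralogs; Rpl27a, the start-site sequences and the comparison over both genotypes were chosen after the values were seen. The labelled B cell identity was checked on markers, and in both GC libraries of batch 3 the T cell sum exceeded the B cell sum. Depth was read from loci of 800 to 2500 bases, whose low values were whole multiples of 1 read within 0.1 reads. Alternatives covered the pseudocount, filter, scaling, block, batches and each library. Some genes that the naming rule includes are not reported here.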

Additional observations from a re-analysis of the deposited data

How the results depend on the processing

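The direction of the median member in GC against non-GC cells was negative in both genotypes and in their average under each alternative run. Centred on abundant genes it was -0.71 in Sle1b, -0.44 in Ifnar1KO and -0.58 over both, and centred on the median gene -0.76 in Ifnar1KO and -0.95 over both (without batch 3, -1.0 with the median gene and -0.98 with abundant genes). Over both genotypes it was -1.72 with a pseudocount of 0.1 and -1.02 with 5. With 1 library left out it ranged from -1.60 to -0.94 in Sle1b, -1.45 to -1.08 in Ifnar1KO and -1.46 to -1.06 over both, fits without batch 3 included. The mean log2 ratio of summed levels in Ifnar1KO moved from -1.34 to -0.86 with named genes scaled to 1 total. In each genotype and in the genotype comparisons 0 members passed under each alternative. Over both genotypes the members called lower numbered 1 with a pseudocount of 5, 4 centred on abundant genes and 29 without batch 3 (340 of all genes). Without batch 3 they numbered 14 centred on the median gene (171 of all genes), 10 centred on abundant genes (152) and 32 with pseudogenes (321). Leaving out 1 library gave 0 with all batches and 0 to 35 without batch 3. Counts over all genes are not given for the other fits. For these member counts the cause was not tested, beyond fewer samples. Without the replicate block the count was 0 in each comparison and, without batch 3, 0 instead of 29, with medians of -1.26, -1.23, -0.44, -0.51 and -0.06 in the comparisons and -1.25 over both genotypes. Between genotypes in GC cells the median was -0.51, -0.12 centred on the median gene (-0.13 also without batch 3) and -0.87 to -0.22 with 1 library left out. The interaction's median changed sign: 0.27 centred on the median gene, 0.25 with quantile normalization, 0.26 without batch 2, and -0.49 to 0.37 with 1 library left out. Rps2 in Sle1b was -0.14 without batch 3 when summed with its pseudogenes, against 0.49 without batch 3 alone and 1.32 with all batches. FPKM tables carry no counting error, and values under about 1 FPKM rest on few reads.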
